A study of Mus musculus with 17 samples.

Results

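The comparison described here is the effect that the R206W and P209L substitutions of hnRNPH2 had in common in mouse cortex. Its members were the mice of both knockin lines, 11 of the 17 samples of the series: R206W (n = 3) and R206W Control (n = 3), and P209L (n = 3) and P209L Control (n = 2). For each gene, the difference between mutants and their own controls was taken within each line on the log2(TPM + 1) scale, and both differences were averaged with equal weight. This average is called the shared effect. TPM (a length-corrected measure of abundance) is the share of a transcript among all transcripts of a sample.

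RNA was sequenced from bulk cortex of C57BL/6J males. The knockin mice were hemizygous for R206W or P209L on the single X chromosome of a male, and the controls were wild-type littermates of the same line. R206W mice and their controls were 8 weeks old and P209L mice and their controls were 3 weeks old, so line and age cannot be told apart. Another line, of 8-week-old mice hemizygous for a frameshifting indel of Hnrnph2 (KO, n = 3) with its own wild-type littermates (KO Control, n = 3), was used only where the shared effect was set against loss of the gene. The labels do not say which mice shared a litter or a dissection day, so p-values measure only the spread between these samples, part of which may be technical.

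The product of Hnrnph2 belongs to the hnRNP H/F family of nuclear proteins, which bind runs of guanines in RNA and take part in splicing and polyadenylation. Both substitutions lie in its proline-tyrosine nuclear localization signal, a short stretch that nuclear import receptors of the transportin family recognise. Hnrnph1 on an autosome encodes its closest paralog. In cortical neurons, proteins that anchor phosphatases and scaffolds at the synapse set the shape and strength of dendritic spines.

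The stretch of coding sequence that holds both substituted positions shows how near they are to each other. The reference sequence is printed for codons 200 to 215, 5′ to 3′, with the codons of R206W and P209L in capitals, beside the same codons of Hnrnph1. These are wild-type reference sequences from GENCODE M21 transcripts (GRCm38). The Hnrnph2 stretch is coding sequence in exon 4 of 4 of Hnrnph2-201 (chrX:134605505-134605552, plus strand). The Hnrnph1 stretch is in exon 6 of 14 of Hnrnph1-201 (chr11:50382598-50382645, plus strand).
Hnrnph2: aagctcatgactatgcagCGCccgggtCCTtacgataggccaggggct
Hnrnph1: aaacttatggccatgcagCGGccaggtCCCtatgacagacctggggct
The codon of R206W read CGC (arginine) and that of P209L read CCT (proline) in Hnrnph2. The corresponding Hnrnph1 codons encoded the same residues. Over these 48 bases the genes differed at 11 positions, and over the 16 encoded residues at 1.

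Transcript levels of Hnrnph2 itself were little moved by either substitution. R206W mice had 142, 135 and 160.4 TPM against 149, 147 and 140.2 TPM in their controls. P209L mice had 84.5, 90.3 and 103 TPM against 91.4 and 81.6 TPM. Mutants and controls overlapped in both lines, and the shared effect was 0.05 ± 0.128 on the log2 scale (SE, adjusted p = 1.0). The TPM table therefore does not check which mice carried a substitution. In KO cortex the transcript was at 19.0% of its controls.

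Some facts of the whole series bear on these values. TPM values of a sample add up to a fixed total and keep no sequencing depth, so the depth is unknown. Across genes, the log2 values of knockin-line samples correlated with an r of 0.937 to 0.988. The 13 cortical neuron markers were all measured, Tbr1 among them. KO Control 1 stood apart, with 20.1% of its TPM in mitochondrial genes against 10.7% to 15.4% elsewhere, and P209L Control 2 stood apart in choroid plexus markers, as given below with the lowered genes. In bulk tissue, fewer cells of a type and less RNA per cell cannot be told apart.

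At an adjusted p under 0.05 in limma, 29 of the 16265 genes tested (0.178%) passed in the shared effect. Of these, 25 were higher in the mutants (0.154% of all genes tested) and 4 were lower (0.0246%). The raised genes had shared effects of 0.36 to 1.63, with a median of 0.62, and the lowered genes of -0.78 to -0.55. Across all genes tested the median was 0.01. At an unadjusted p under 0.05 the counts were 497 higher (3.06%) and 368 lower (2.26%). All 29 moved in the same direction in both lines, which is part of what a large average selects.

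Separation of the mice was also counted without the model. All mutants lay above all of their own controls in both lines for 254 genes (1.56% of all genes tested), and below them in both for 122 genes (0.75%). In 351 genes the mutants were separated from their controls in both lines but in opposite directions. Within single lines, 16.2% of all genes tested were separated in R206W and 24.9% in P209L. Whether separation in the same direction was more frequent than chance gives was not tested. The raised genes were separated alike in both lines for 24 of 25, and the lowered genes for 3 of 4. The exceptions were Gm20431 and Igfn1, whose R206W mice overlapped their controls. Mutant and control labels were also permuted exactly within each line, which has 200 assignments. The 27 separated genes reached a permutation p of 0.005 (two-sided), the smallest that this design allows. These genes were selected on the same mice, and full separation in both lines largely fixes this result. It is therefore not independent evidence. Taken alone, each line gave fewer calls. The R206W effect passed for 6 genes (0.0369% of all genes tested), all of them among the 29, and the P209L effect for 16 (0.0984%), 14 of them among the 29.

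**Figure D1:**
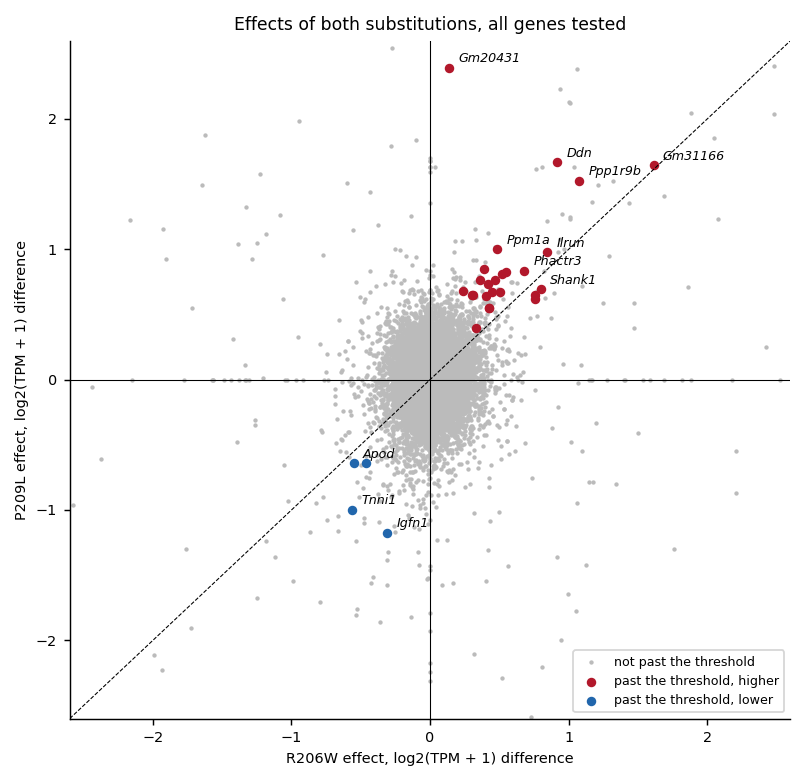
The R206W effect (x axis) and the P209L effect (y axis) of each gene tested, as differences in log2(TPM + 1) between mutants and their own controls. The 25 raised genes are in red and the 4 lowered genes in blue, and the dashed line marks equal effects. All 29 lie in the upper right or lower left quadrant, and 21 other genes lie outside the axes, which end at 2.6 on either side of 0.

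Several raised genes encoded proteins of dendritic spines and the postsynaptic density. Ppp1r9b encodes spinophilin, which holds protein phosphatase 1 (PP1) in dendritic spines (ENSMUSG00000038976.12, chr11:94991035-95006899, GRCm38). It had the smallest p of all genes. Its controls had 339, 368 and 389 TPM in the R206W line and 204 and 233 TPM in the P209L line. R206W mice had 780.1, 786 and 745 TPM and P209L mice had 579.7, 647 and 663 TPM. Every mutant was above every control of either line. Spinophilin transcripts stood at 211% of the control mean in R206W cortex and 289% in P209L cortex, with a shared effect of 1.30 ± 0.0728 (adjusted p = 1.09e-07). The KO mice had 348, 348 and 409 TPM, on either side of their controls at 364, 376 and 378 TPM.

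Ddn encodes dendrin, a protein of the postsynaptic density whose mRNA is carried into dendrites (ENSMUSG00000059213.7, chr15:98803777-98809490). R206W mice had 1071, 953 and 919.7 TPM against 527, 518 and 509 TPM in their controls. P209L mice had 1001, 1234 and 1036 TPM against 326 and 356 TPM. The ranges of both groups of mutants overlapped each other, while the P209L controls lay below the R206W controls. The shared effect was 1.29 ± 0.0766 (adjusted p = 1.14e-07). KO mice had 441, 501 and 524 TPM and did not stand apart from their controls at 484 to 512 TPM. The annotation places 177 exon bases of Ddn, 4.7% of its exons, opposite an antisense gene, B130046B21Rik. The kit marks strand, but whether counting used it is not given in the sources used here.

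Shank1 encodes a scaffold of the postsynaptic density. R206W mice had 294, 322 and 325 TPM against 168, 177 and 194 TPM, and P209L mice had 149.8, 139 and 166 TPM against 83.3 and 104 TPM. Both groups of mutants lay above their own controls, but the P209L mutants were below the R206W controls. The shared effect was 0.75 ± 0.126 (adjusted p = 0.0199), and leaving out single mice ended the call in 8 of 17 fits. Cacng7, which encodes an auxiliary subunit of AMPA-type glutamate receptors, had the smallest change among the raised genes, 0.36 ± 0.0663 (adjusted p = 0.0346).

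Most other components of the postsynaptic density were not called. Of 28 genes in a list of postsynaptic density components, Ddn and Shank1 passed, both higher, and the median shared effect of the list was 0.04 against 0.01 over all genes tested. Shank2, Shank3, Dlg4 and Homer1 were on the list and did not pass. Sipa1l1, a spine-associated regulator of Rap GTPases, had a shared effect of 0.59 (adjusted p = 0.0956). It did pass in some alternatives, among them median-of-ratios size factors, quantile normalization and the 11 knockin-line samples alone. Leaving out KO Control 1 or KO Control 3 also made it pass. The lowest member was Synpo at -0.19.

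The PP1 system held 3 raised genes. Beside Ppp1r9b these were Phactr3, a regulator that binds both PP1 and actin, and Ppp1cb, a catalytic subunit of PP1. Phactr3 (ENSMUSG00000027525.17, chr2:178118975-178338492) had 136, 132 and 131 TPM in R206W mice against 80.8, 84.2 and 82.9 TPM, and 119, 142 and 131 TPM in P209L mice against 72.4 and 72.4 TPM. The gap between mutants and controls was wider than the spread within any of the 4 groups. The shared effect was 0.76 ± 0.0654 (adjusted p = 1.56e-05), and the KO effect was -0.02 ± 0.0872. Ppp1cb had a shared effect of 0.56 ± 0.0998 (adjusted p = 0.0295). Its call was lost under median-of-ratios size factors and under quantile normalization, so 2 of the 21 list members passed there. The call was also lost with a replicate block and when any single mouse of the R206W line, mutant or control, was left out. Leaving out any single P209L mutant, P209L Control 2 or KO 1 ended it as well. The other catalytic subunits, Ppp1ca and Ppp1cc, did not pass, and the median of the list was 0.03. Ppm1a encodes a phosphatase of the separate PPM family, known for acting on Smad proteins and stress kinases (ENSMUSG00000021096.11, chr12:72757455-72799819). R206W mice had 298, 289 and 306 TPM against 214, 211 and 212 TPM, and P209L mice had 226, 240.5 and 308 TPM against 134 and 121 TPM. The P209L mice were more spread than the R206W mice, but all were above their controls. Its shared effect was 0.74 ± 0.0971 (adjusted p = 0.00242), and of the 10 PPM phosphatases tested it alone passed in this fit.

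The raised genes also held 1 presynaptic scaffold and 1 polarity kinase. Ppfia3 encodes liprin-alpha-3, a scaffold of the active zone where vesicles fuse (ENSMUSG00000003863.18, chr7:45339122-45367019). R206W mice had 129, 130.5 and 128 TPM against 77.5, 74.05 and 76.1 TPM, and P209L mice had 121, 119.6 and 122 TPM against 75.6 and 81.4 TPM. Every mutant was above every control of either line. The shared effect was 0.69 ± 0.0839 (adjusted p = 0.00118). Of 23 active zone and release genes it was the one that passed, and the list median was 0.02. The KO effect of Ppfia3 was 0.16 ± 0.112.

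Brsk1 encodes a kinase of the SAD family that acts in neuronal polarity and at presynaptic terminals (ENSMUSG00000035390.16, chr7:4690604-4715997). R206W mice had 293, 307 and 301 TPM against 210.2, 225 and 238 TPM, and P209L mice had 225, 226 and 290.2 TPM against 139 and 157 TPM. The P209L mutants overlapped the R206W controls but not their own. The shared effect was 0.58 ± 0.0803 (adjusted p = 0.00438). Exons of Tmem150b on the other strand cover 25.7% of the exon bases of Brsk1. None of the other 13 polarity and AMPK-related kinases tested passed, Brsk2 and Mark1 to Mark4 among them. Ctnna2, the neuronal alpha-catenin that links cadherins to actin, had a shared effect of 0.59 ± 0.0944 (adjusted p = 0.0138). It was the single call among 15 catenins and cadherins tested, of which 12 lay above 0, with a median of 0.14.

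Ilrun, a regulator of inflammatory and lipid signalling, had narrow groups (chr17:27751232-27820542 in the RefSeq annotation of GRCm38.p6). R206W mice had 320.1, 324 and 318 TPM against 175, 177 and 182 TPM, and P209L mice had 199, 196 and 203 TPM against 93.9 and 108 TPM. Mutants stood at 180.0% and 197% of their control means. This gave a shared effect of 0.91 ± 0.0688 (adjusted p = 2.99e-06), beside a KO effect of -0.01 ± 0.0918. Marf1, an RNA-binding protein first described in oocytes that lowers the level of its target mRNAs, gave 74.7, 73.9 and 74.6 TPM in R206W mice against 52.1, 53.5 and 54.6 TPM (ENSMUSG00000060657.8, chr16:14109173-14163351). P209L mice had 46.4, 42.0 and 47.5 TPM against 25.3 and 27.0 TPM. The levels in the P209L line were lower in mutants and controls alike, and the groups did not overlap in either line. The shared effect came to 0.62 ± 0.0674 (adjusted p = 0.000311).

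Rimklb encodes an enzyme that joins glutamate to N-acetylaspartate or citrate (ENSMUSG00000040649.15, chr6:122447296-122498761). R206W mice had 57.6, 58.3 and 66.5 TPM against 47.5, 37.3 and 39.5 TPM, and P209L mice had 48.3, 57.6 and 64.6 TPM against 28.9 and 34.0 TPM. Its groups were wider than those of Ilrun but did not overlap. On average the effect was 0.69 ± 0.0924 (adjusted p = 0.00305). Of the 5 genes of N-acetylaspartate metabolism tested, no other passed, and Aspa, the oligodendrocyte enzyme that breaks N-acetylaspartate down, had a shared effect of -0.36 (adjusted p = 0.854).

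Gm31166 is annotated as a transcribed processed pseudogene (ENSMUSG00000109695.1, chr19:5512528-5550368) and had the largest shared effect of the 29. R206W mice had 9.51, 9.36 and 8.36 TPM against 2.11, 2.39 and 2.36 TPM, and P209L mice had 8.14, 7.81 and 9.27 TPM against 1.75 and 2.28 TPM. Levels were low, and mutants stood at 397% and 417% of their control means without overlap. The averaged difference was 1.63 ± 0.0936 (adjusted p = 1.09e-07). In the KO line, the mutants at 2.66 to 3.74 TPM also lay above their controls at 2.23 to 2.61 TPM, with an effect of 0.21 ± 0.125 (adjusted p = 0.999). Exons of Ovol1 on the opposite strand cover 690 bases, or 44.1%, of its exons, and Ovol1 itself was at no more than 0.13 TPM in the knockin lines.

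**Figure D2:**
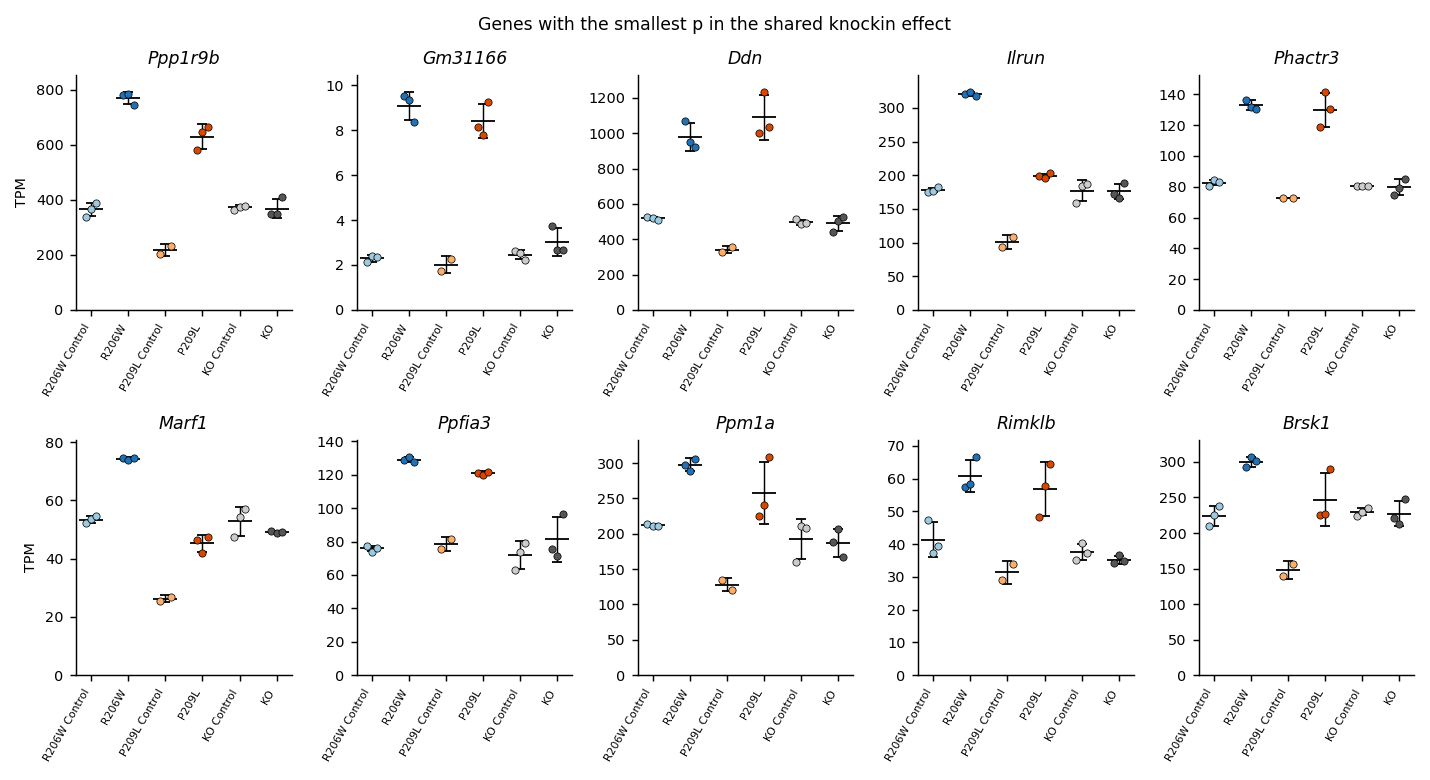
TPM of the 10 genes with the smallest p in the shared effect, by group. Each point is a mouse, the bar is the group mean and the error bar 1 SD, and the y axes start at 0. In all 10 panels the R206W and P209L mice lie above their own controls without overlap.

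The remaining raised genes had shared effects of 0.46 to 1.27. Foxo4, a forkhead transcription factor that insulin signalling restrains, was the one called gene on the X chromosome, at 0.52 ± 0.0755 (adjusted p = 0.00586), and the other 19 genes of a FoxO and insulin list did not pass. Paip2b, which holds the poly(A)-binding protein away from translation, had 0.62 ± 0.0899 (adjusted p = 0.00586), while Paip1, Paip2 and the translation initiation factors of its list did not pass. Tab2, an adaptor of the kinase TAK1, had 0.56, and Zfp91, a zinc finger ubiquitin ligase, had 0.48. Grk5, a kinase of G protein-coupled receptors, and Dzip1, a protein of the ciliary base, each had 0.49. Socs5, a suppressor of cytokine signalling, had 0.48 and the RNA-binding protein Msi2 0.46. Ash1l, a methyltransferase of histone H3 lysine 36, had 0.67 ± 0.125 (adjusted p = 0.0411) and lost its call in 14 of 17 fits with a mouse removed. The unnamed transcript 4833412C05Rik had 0.70 ± 0.115 (adjusted p = 0.0154).

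For Gm20431 the average hid unequal effects. It is annotated as a read-through of Tmem189 and Ube2v1, and all 2367 of its exon bases are shared with those genes on the same strand, so how reads were divided among them is uncertain. P209L mice had 2.14, 6.28 and 6.33 TPM against 0.00 and 0.10 TPM, but R206W mice had 12.2, 14.7 and 16.9 TPM against 15.4, 10.8 and 13.4 TPM and overlapped their controls. The R206W effect was 0.14 ± 0.256 and the P209L effect 2.39 ± 0.286, so that the average of 1.27 lay far from both. The call was lost in the fit with a single effect common to both lines. The exact permutation p was 0.035. Zfp91 shares 8.4% of its exon bases with Cntf and Ppp1cb 17.5% with Gm43312, also on the same strand.

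The 10 genes that the study named as raised in both knockin lines were chosen on these samples, so their direction is not independent evidence. Of the 10 genes, 9 passed here, and the median shared effect over all 10 was 0.72. Tnpo2, which encodes a transportin, did not pass. R206W mice had 102, 103 and 124.5 TPM against 74.6, 71.3 and 72.7 TPM, and P209L mice had 70.9, 80.4 and 105 TPM against 48.7 and 51.2 TPM. The groups did not overlap, but the shared effect was 0.66 ± 0.145 with an adjusted p of 0.123. Tnpo2 passed in 5 of 12 alternatives and, when mice were removed singly, without KO Control 1. None of the 24 importins, transportins and exportins tested passed in limma, Tnpo2 was the 1 with an unadjusted p under 0.05, and their median was 0.01.

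In 22 of the 25 raised genes, and in all 4 lowered genes, the P209L effect was the larger in size. The share of all genes tested with a larger P209L effect was not counted. Of all genes tested, 7.46% had an unadjusted limma p under 0.05 for P209L and 2.19% for R206W. The median of the raised genes was 0.47 for R206W and 0.73 for P209L. Tested directly, the difference between both effects passed for 0 of the 29 and for 0 genes in all (0.0%), while 647 genes (3.98%) had an unadjusted p under 0.05, 9 of the 29 among them. The smallest p belonged to Gm20431, with a difference of 2.26 ± 0.384 (adjusted p = 0.433). Ddn followed Gm27505, a short RNA of uncertain class that went in opposite directions, with a difference of 0.75 ± 0.153 (adjusted p = 0.744). R206W controls were above P209L controls in mean for 24 of the 25 raised genes, against 64.5% of all genes tested. The P209L controls enter both quantities, and line and age cannot be told apart in them.

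**Figure D3:**
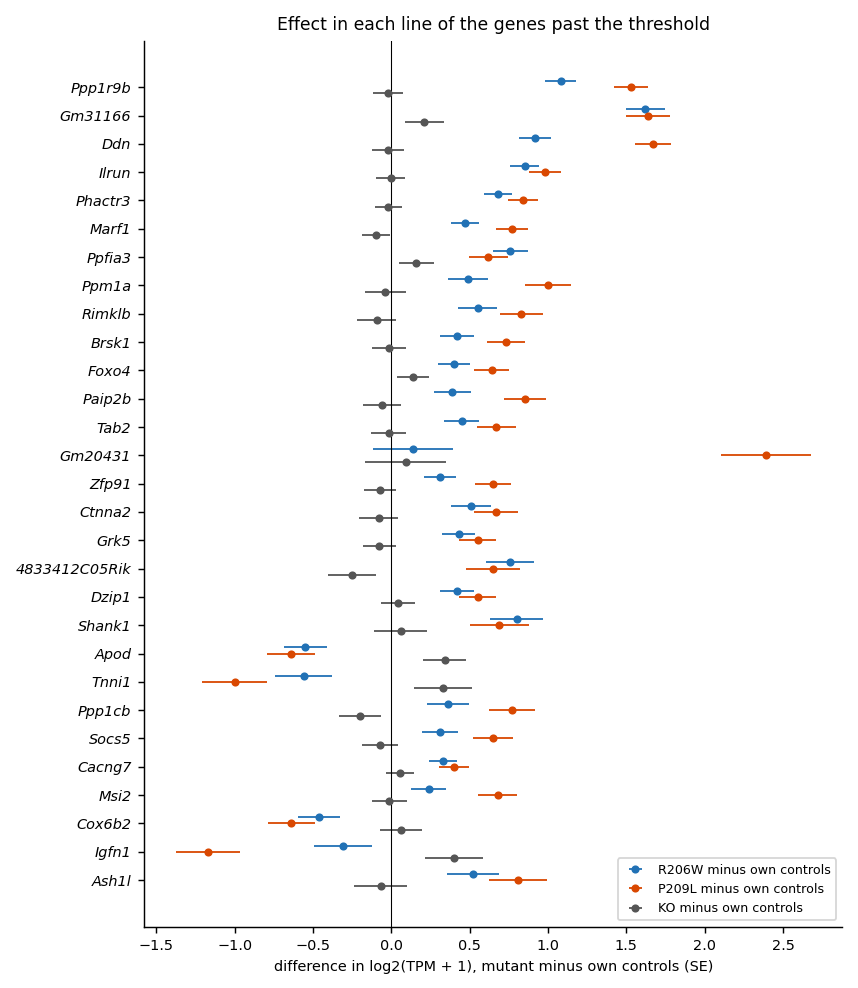
Effect in each line of the 29 genes past the threshold, ordered by p, as the difference in log2(TPM + 1) between mutants and their own controls with its SE. R206W is in blue, P209L in orange and KO in grey. KO effects lie between -0.25 and 0.40, and for 22 of the 29 they have the opposite sign to the shared effect. That share was not counted over all genes tested. The median KO effect of the raised genes is -0.02, against 0.06 over all genes tested.

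The KO line was used to ask whether loss of Hnrnph2 moved these genes. None of the 25 raised genes had an unadjusted p under 0.05 in KO cortex, against 4.08% of all genes tested, so a count of 0 among 25 is near the background. Their median KO effect was -0.02, against 0.06 over all genes tested. Among the 29, Apod and Igfn1 did, and both were higher in KO, at 0.34 and 0.40. Gm31166 and Foxo4, 2 of the 25, lay higher in every KO mouse than in every KO control, as did 5.43% of all genes tested. The shared effect minus the KO effect passed for 6 of the 29, and for 8 genes in all (0.0492% of all genes tested), with 862 (5.3%) at an unadjusted p under 0.05. The 6 were Ppp1r9b (1.32), Gm31166 (1.42), Ddn (1.32), Ilrun (0.92), Phactr3 (0.78) and Marf1 (0.72). All 29 had an unadjusted p under 0.05 in this contrast. The shared effect and this contrast rest on the same knockin samples. The other called genes were Hnrnph2 itself, at 2.35, and Prr5l, which lies outside the rule for named genes and was chosen after its value was seen.

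The 5 genes of the hnRNP H/F family did not pass in the shared effect, and none had an unadjusted p under 0.05. Hnrnph1 had 377, 375 and 355 TPM in R206W mice against 336, 323 and 377 TPM, and 401, 305 and 313 TPM in P209L mice against 273 and 284 TPM. Mutants overlapped controls in the R206W line and not in the P209L line. Its shared effect was 0.19 ± 0.0961 (adjusted p = 0.983, exact permutation p = 0.05), beside a KO effect of 0.52 ± 0.128 (adjusted p = 0.806). Hnrnph3 had a shared effect of -0.10, Hnrnpf of 0.07 and Grsf1 of -0.04. The sign of the last 2 turned when single P209L mice or controls were left out. Among 26 other splicing and RNA-binding genes none passed in limma, 2 had an unadjusted p under 0.05, and the median was 0.02. Elavl3, a neuronal RNA-binding protein, was highest at 0.46 (adjusted p = 0.208), and Taf15 lowest at -0.24 (adjusted p = 0.819). Elavl3 did pass in some alternatives, among them size factors, quantile normalization and the 11 knockin-line samples alone, and without KO Control 1.

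Of the 4 lowered genes, Apod had the smallest p. It encodes apolipoprotein D, a lipid carrier made by glia and meningeal cells (ENSMUSG00000022548.14, chr16:31296192-31314808). R206W mice had 129.6, 117 and 120.0 TPM against 176, 157 and 208.76 TPM, and P209L mice had 112, 129 and 90.2 TPM against 157 and 186 TPM. Mutants lay below their controls in both lines. This gave a shared effect of -0.60 ± 0.103 (adjusted p = 0.0241).

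Tnni1 encodes the troponin I of slow muscle fibres (ENSMUSG00000026418.16, chr1:135779434-135810989). R206W mice had 3.87, 3.05 and 2.66 TPM against 6.41, 4.33 and 4.88 TPM, and P209L mice had 2.25, 3.68 and 2.35 TPM against 6.50 and 6.30 TPM, with a shared effect of -0.78 ± 0.137 (adjusted p = 0.0285). No mutant reached the level of a control of its line. Igfn1, a muscle protein with immunoglobulin and fibronectin repeats, had 11.99, 11.5 and 15.95 TPM against 18.2, 14.9 and 16.1 TPM in R206W mice, and 8.33, 6.78 and 8.95 TPM against 18.2 and 20.4 TPM in P209L mice (ENSMUSG00000051985.12, chr1:135953578-136006342). Here 1 R206W mouse lay among its controls. The shared effect came to -0.74 ± 0.138 (adjusted p = 0.0391).

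Cox6b2 encodes a subunit of cytochrome c oxidase known mainly from testis (ENSMUSG00000051811.14, chr7:4751792-4753094). R206W mice had 3.07, 2.95 and 3.40 TPM against 4.24, 4.72 and 5.16 TPM, and P209L mice had 4.01, 4.79 and 3.49 TPM against 5.87 and 8.05 TPM. All mutants were below their own controls. On average the effect was -0.55 ± 0.1 (adjusted p = 0.0346). Of 20 sarcomere genes 8 could be tested, and Tnni1 and Igfn1 passed, with a list median of -0.41. By line, the list median was -0.06 for R206W and -0.75 for P209L. Summed over the list, R206W mice had 76.3 to 86.5 TPM against 75.5 to 93.9 TPM in their controls, which overlapped. P209L mice had 63.1 to 74.8 TPM against 144.4 to 147.9 TPM. Both Tnni1 and Igfn1 lost their calls in the fit with a single effect common to both lines, and without a filter. Myh7 and Tnnc1 had shared effects of -0.75 and -0.55 and did not pass. Their R206W effects were -0.08 and 0.12 and their P209L effects -1.43 and -1.23.

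**Figure D4:**
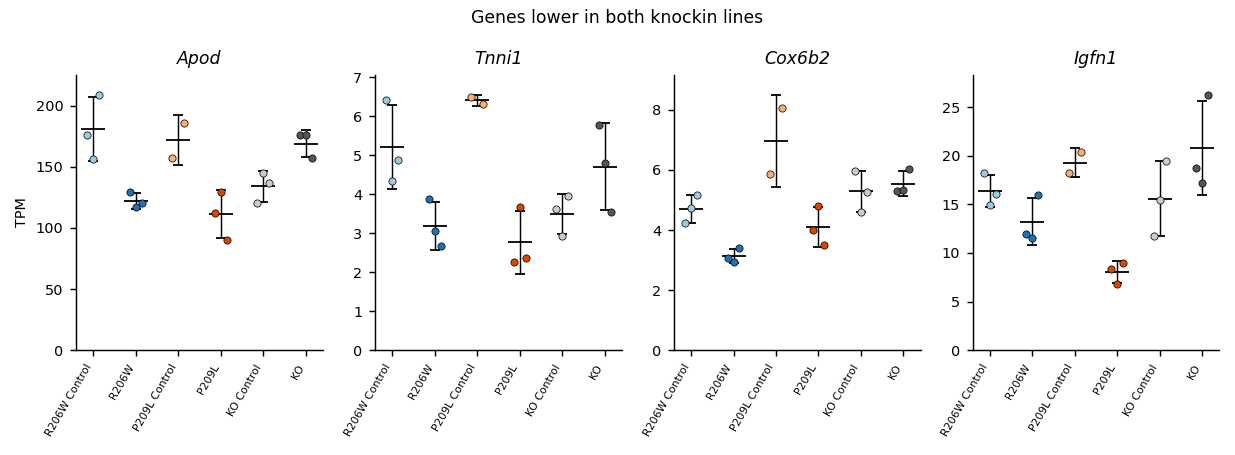
TPM of the 4 genes that were lower in the shared effect, by group. Each point is a mouse, the bar is the group mean and the error bar 1 SD, and the y axes start at 0. The R206W and P209L mice lie below their own controls, except for 1 R206W mouse in the panel of Igfn1.

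Markers of other cell types were summed beside the lowered genes. All 14 oligodendrocyte markers had a shared effect below 0, with a median of -0.45. None passed in this fit, although 13 had an unadjusted p under 0.05, against 2.26% of all genes tested in that direction. Cldn11, a tight junction protein of myelin, passed in 3 of the 12 alternatives and without KO Control 1, and Mog, a protein of the myelin surface, with sample weights. Their medians were -0.12 in R206W, -0.78 in P209L and 0.17 in KO, and their summed level was 2614 to 3723 TPM in P209L mice against 4323 to 6434 TPM in the controls. In the R206W line it was 2996 to 3754 TPM against 3545 to 3863 TPM, which overlapped. All 12 leptomeningeal markers (median -0.30) and all 6 blood markers tested (median -0.58) were below 0 as well. None of either list passed in limma, with 5 and 4 at an unadjusted p under 0.05. Summed leptomeningeal markers were at 388 to 443 TPM in P209L mice against 777 to 918 TPM, and at 743 to 1117 TPM in R206W mice against 1003 to 1505 TPM. The blood markers summed to 563 to 695 TPM in R206W mice against 740.2 to 1256 TPM, and to 1908 to 2839 TPM in P209L mice against 2574 to 4888 TPM. P209L Control 2 was far above the others in choroid plexus markers, with 1739.95 TPM of Ttr against 0.67 to 23.2 TPM in the other knockin-line samples. Without this mouse 10 genes passed, all of them higher, and the 4 lowered genes lost their calls. These 10 were the genes with the smallest p described above. No gene passed as lower without P209L 1, R206W Control 1 or R206W 2 either, while 20, 17 and 16 passed as higher. Without P209L Control 1, 20 genes passed higher and 20 lower, and 19 of the 29 were among them. The P209L controls then consisted of P209L Control 2 alone, and in the fit without P209L Control 2 they consisted of P209L Control 1 alone. Neither fit measures the spread of the P209L controls. The part of these cell types in the lowered genes was not tested. Astrocyte, microglia and cortical neuron markers had medians of 0.00, -0.05 and 0.05. None of them passed in limma, with 1, 0 and 2 at an unadjusted p under 0.05. All 12 immediate-early genes were above 0 in the shared effect, with a median of 0.25, but 0 passed in limma and 0 had an unadjusted p under 0.05. By line, their median effect was 0.49 for R206W and 0.07 for P209L, beside 0.205 for KO.

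**Figure D5:**
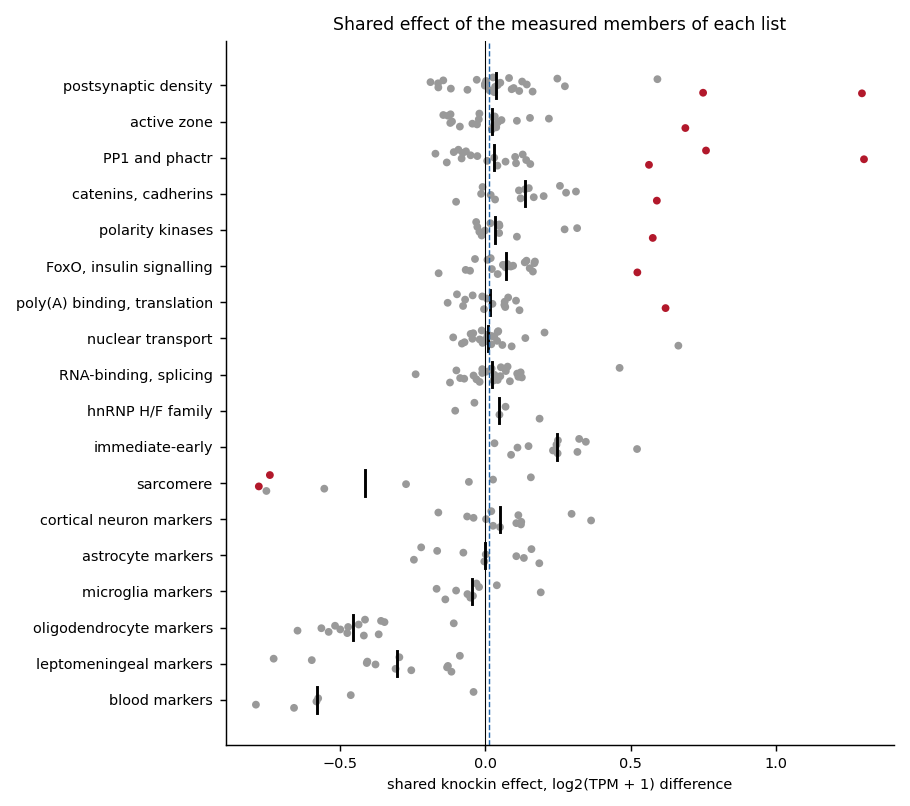
Shared effect of each tested member of 18 gene lists, as a difference in log2(TPM + 1). Each point is a gene, red where it passed the threshold, and the black bar is the list median. The dashed line is the median of all genes tested, 0.01. Most list medians lie near it, and those of the sarcomere, oligodendrocyte, leptomeningeal and blood lists lie at -0.30 or below.

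The raised genes lay on 14 chromosomes, with Ppfia3, Brsk1, 4833412C05Rik, Shank1 and Cacng7 all on chromosome 7. In the annotation matched by symbol 22 were protein-coding, a count that leaves out Ilrun, whose symbol had no match. The raised genes were expressed at a median of 69.9 TPM, against 15.4 TPM for all genes tested. Their longest annotated transcripts had a median length of 4577 bases, against 3074 bases over the 16139 genes with an annotated transcript. Runs of 3 or more guanines, the kind of sequence that hnRNP H proteins bind, occurred 12.6 times per kb of transcript, against 12.2 overall. GC content was 48.6% against 49.6%. These are descriptions of the annotated mature transcript and say nothing of introns.

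The regions upstream of the transcription start could be read for 17 of the 25 raised genes and for the 4 lowered genes from RefSeq (GRCm38.p6), from 250 bases before to 50 after the start. The raised genes share a direction because they were selected for it, and a common regulator was not tested. Of 4 motifs searched on both strands, the GC box (GGGCGG) was held by 13 of the 17, or 76.5%, against 67.6% of all tested genes with such a region. The FoxO core (TGTTTAC) and the TATA box (TATAAA) were in none of the 17, against 3.09% and 8.98%. The full cAMP response element (TGACGTCA), a palindrome, was in 3 of the 17, against 3.51%. These 3 were Ilrun (chr17:27820699-27820758, minus strand), Ppm1a (chr12:72761049-72761108, plus strand) and Msi2 (chr11:88718413-88718472, minus strand), printed 5′ to 3′ with the motif in capitals.
Ilrun: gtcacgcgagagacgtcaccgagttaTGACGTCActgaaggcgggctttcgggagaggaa
Ppm1a: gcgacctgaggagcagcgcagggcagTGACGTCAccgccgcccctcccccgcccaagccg
Msi2: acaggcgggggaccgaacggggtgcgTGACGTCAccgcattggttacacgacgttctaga
A match describes the letters and is not a bound site, and factor binding was not measured.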

How the data were processed

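TPM values were computed by the authors and deposited as a matrix of gene symbols by mice. Per the labels, total RNA from bulk cortex was made into stranded total RNA libraries. The submitters' processing notes list the build mm10 and the tools Trim Galore, STAR 2.7.1a, GATK 4.0.4.0 and RSEM, with no role or order. TPM keeps no depth, so depth and counting error are unknown. Repeated symbols (120 of 55573 entries) were summed, and genes with a mean of at least 1 TPM over the 17 samples were tested (16265). Group means (6) were fitted to log2(TPM + 1) over all samples with limma 3.58.1 (R 4.3.3, eBayes with trend=TRUE). P-values were two-sided and adjusted by Benjamini-Hochberg over all genes tested. Fold differences are on the log2(TPM + 1) scale, which understates changes of low genes. Gene positions came from GENCODE M21 (GRCm38), which held 98.3% of the symbols. The pipeline was tested on simulated data. Python 3.11.15, numpy 2.4.6 and pandas 2.3.3 were used.

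Members, gene lists and tests were chosen with earlier results of these data known. The genes named were all past an adjusted p of 0.05 in the shared effect (per-mouse values for the 10 smallest p and the 4 lowered), the 10 of the study, the hnRNP H/F family, up to 5 genes (or the 3 with the smallest p where none passed) of the difference between lines and of the contrast with KO, and from each list those that passed, or else, as examples, its extremes. Other members with an unadjusted p under 0.05 were named after their values were seen, as were per-mouse values of Shank1, Tnpo2, Gm20431, Hnrnph1 and Hnrnph2. Alternatives were pseudocounts of 0.1 and 0.5, no filter, a filter at 5 TPM, quantile normalization, scaling by median-of-ratios size factors, TPM rescaled without mitochondrial genes, the 11 knockin-line samples alone, a replicate block, an effect common to both lines, robust eBayes, sample weights and each mouse left out.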

Additional observations from a re-analysis of the deposited data

Results flagged for a closer look

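The shared effect differed from the KO effect, by limma's test of the difference, for 7 genes named here. The difference on the log2 scale, shared effect minus KO effect, was 1.32 for Ppp1r9b (adjusted p = 9.19e-05), 1.42 for Gm31166 (adjusted p = 0.000543), 1.32 for Ddn (adjusted p = 0.000131), 0.92 for Ilrun (adjusted p = 0.00231), 0.78 for Phactr3 (adjusted p = 0.00785) and 0.72 for Marf1 (adjusted p = 0.025). For these genes the 3 mutants lay above all of their own controls in both knockin lines. Ppp1r9b, Ddn, Ilrun and Phactr3 had been chosen by the study on these samples, in part for not being raised in KO. For Hnrnph2 the difference was 2.35 (adjusted p = 9.19e-05), where the KO effect was -2.30 and the shared effect 0.05.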

How the results depend on the processing

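The 10 genes with the smallest p in the shared effect, Ppp1r9b to Brsk1, passed in every alternative they could be tested in and without any single mouse, and all 29 kept their direction in every fit. The count of 29 moved. It was 63 with the 11 knockin-line samples alone, 61 under size factors, 64 under quantile normalization, 47 without a filter and 195 with sample weights (by the gene-by-gene method, since the default estimate did not converge). Leaving out mice gave 10 (without P209L Control 2) to 67 (without KO Control 1, with all 29 kept). The split of 25 higher and 4 lower became 20 and 20 without P209L Control 1 (19 of the 29 kept), and no gene passed as lower without P209L Control 2, P209L 1, R206W Control 1 or R206W 2. It was 16 to 19 without P209L 3, R206W 2, R206W 3 or any of the R206W controls.

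The R206W effect, 6 genes, gave 11 under quantile normalization and 149 with sample weights, and 5 to 8 without single mice. The P209L effect, 16 genes, gave 66 with the 11 samples alone, 66 under size factors, 32 without mitochondrial genes, 52 without a filter, 58 under quantile normalization, 72 with sample weights and 8 (without P209L Control 2) to 68 (without KO Control 1) when mice were left out. The difference between lines, 0 genes, gave 7 without a filter, 1 at a pseudocount of 0.1, 1 at 0.5, 4 with sample weights and 0 to 2 without single mice. The contrast with KO, 8 genes, gave 20 under size factors, 13 without a filter, 17 under quantile normalization, 739 with sample weights and 6 to 16 (without KO Control 1) without single mice.

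Deviations of same-numbered mice from their group means correlated at -0.113 to 0.331, and those of differently numbered mice of a line at -0.299 to 0.265. With 2 or 3 mice per group, these values cannot show whether replicate numbers pair the samples. A replicate block, in which P209L 3 has no partner and drops out, gave 15 genes for the shared effect (13 of the 29), 9 for P209L and 4 for the contrast with KO. Hnrnpf turned to -0.0192 under the replicate block and without P209L 3 (range -0.0192 to 0.1157 without single mice), and Grsf1 ranged from -0.0888 to 0.0122, turning to 0.0122 without P209L Control 1 and 0.011 without P209L 1. Under size factors and quantile normalization, 3 postsynaptic density genes, 1 nuclear transport gene and 1 splicing gene passed, and under quantile normalization 1 oligodendrocyte marker, Cldn11. Sample weights added Neurod6, Mog, Ptgds, Igf2, Myh7 and Tnnc1 to the calls of their lists, and Myh7 also passed without P209L 2 or P209L 3. The cause of these shifts was not tested. With 2 P209L controls, the P209L spread rests mostly on the other groups.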

Other observations

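Lists not described above held few or no calls in the shared effect. Of 18 histone H3 methyltransferases tested, Ash1l passed, with a list median of 0.02. Medians were -0.13 for 8 oligodendrocyte precursor markers, -0.10 for 10 endothelial markers, -0.08 for 9 mural cell markers, 0.21 for 7 striatal markers, -0.06 for 3 cerebellar markers, -0.85 for 3 choroid plexus markers and -0.06 for 13 mitochondrially encoded genes. None of these passed in the limma fit to all samples, and 1 precursor marker, 2 striatal markers and 2 mitochondrial genes had an unadjusted p under 0.05. The choroid plexus values rest on P209L Control 2, and 2 of these markers, Kcnj13 and Folr1, passed as lower when P209L Control 1 was left out. The mitochondrial median hides wide values, from mt-Co3 at -2.04 ± 0.855 (adjusted p = 0.832) to mt-Co2 at 2.26 ± 0.997 (adjusted p = 0.887), both larger in size than any gene that passed. Their levels varied within groups, as mt-Co2 did in R206W mice at 54.4, 66.95 and 0.07 TPM.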
